A study of Mus musculus with 12 samples.

Results

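A set of 9 genes that move sodium, anions and water across the colonic epithelium, or that control such movement, was followed in mouse colonoids given cytokines. They were listed by symbol: Scnn1a, Scnn1b and Scnn1g, the alpha, beta and gamma subunits of the epithelial sodium channel (ENaC), their kinase regulator Sgk1, the anion channel genes Cftr and Best2, and the aquaporin genes Aqp1, Aqp4 and Aqp8. All 9 were found among 35869 symbols and all 9 were among the 13987 genes with enough counts to test. Colonoids are epithelial structures grown from isolated crypts, here from colons of C57BL/6 mice, embedded in Matrigel with EGF and conditioned medium of L-WRN cells, which supplies Wnt3a, R-spondin and noggin. They hold no added stroma, vessels or immune cells. The groups received mouse IL-1b at 100 ng/mL together with IL-22 at 1 ng/mL, IL-22 alone at 1 ng/mL, IL-1b alone at 100 ng/mL, or no cytokine (unstimulated), with 12 h of stimulation and 3 polyadenylated RNA libraries per group. No label ties a library to an animal or culture, so the spread behind every p-value is that between libraries, possibly technical.

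ENaC lets sodium enter surface cells of the distal colon from the lumen, and the sodium pump moves it on into the blood. Aldosterone, acting through the mineralocorticoid receptor, raises this absorption, in part through Sgk1, a kinase that keeps the ubiquitin ligase Nedd4l from removing ENaC from the membrane. CFTR is the cAMP-gated apical anion channel of crypt cells, bestrophin 2 is an anion channel of colonic goblet cells, and aquaporins pass water. IL-22 is a lymphoid cytokine that signals to epithelium through STAT3, and IL-1b is an inflammatory cytokine that signals through NF-kB.

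With both cytokines 6 of the 9 genes fell and 1 rose against unstimulated colonoids, with IL-22 alone 2 fell and 1 rose, and with IL-1b alone none passed the test. Of all genes tested, 27.0%, 22.5% and 0.0715% passed in these comparisons. Best2 fell most, by 4.22 ± 0.47 on the log2 scale with both cytokines. Aqp4 was the gene that rose. Sgk1 and Scnn1a were lower with both cytokines, while neither passed the test with either cytokine alone. That contrast does not show an effect that needs both. The test for a different IL-1b effect in the presence of IL-22 (interaction) passed for neither (edgeR adjusted p = 0.924 and 0.98). Levels are given in CPM after TMM scaling, with SD over n = 3, and each log2 fold change has an approximate standard error. "Rose" and "fell" are used of genes with an adjusted p under 0.05 in the quasi-likelihood test of edgeR (Benjamini-Hochberg, over all genes tested).

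The genes Scnn1g, Scnn1b and Aqp8 lie close together on mouse chromosome 7 (mm10, GENCODE M21), Scnn1g at 121734479 to 121768475, Scnn1b at 121865038 to 121918514 and Aqp8 at 123462291 to 123468004, all on the plus strand. Between Scnn1g and Scnn1b lie 96.6 kb and no protein-coding gene, and Aqp8 starts 1543.8 kb past Scnn1b. Chromosome 6 holds Cftr (18170687 to 18322768), Aqp1 (55336432 to 55348555) and Scnn1a (125320659 to 125344943). Sgk1 lies on chromosome 10 (21882184 to 21999903) and Best2 on chromosome 8 (85007202 to 85014531, minus strand). Of Cftr, 129 exon bases are shared with an antisense model, so its counts are uncertain to that extent because the counting strand is not given in the sources used here. No exon of another member is shared with another gene model.

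Promoter sequences from RefSeq (GRCm38.p6, 250 bases before to 50 after an annotated start) matched 6 members, and those of the sodium side are shown because Sgk1, Scnn1b and Scnn1g fell together with both cytokines. All are on the plus strand and written 5′ to 3′, with matches of 4 motifs in capitals. The motifs, searched on both strands, were the steroid receptor palindrome (AGAACA and TGTTCT with 3 bases between), the STAT motif TTCNNNGAA, the CDX motif TTTATG and an NF-kB motif (GGG and TTNCC with 2 bases between).
Sgk1 start at chr10:21993640-21993939: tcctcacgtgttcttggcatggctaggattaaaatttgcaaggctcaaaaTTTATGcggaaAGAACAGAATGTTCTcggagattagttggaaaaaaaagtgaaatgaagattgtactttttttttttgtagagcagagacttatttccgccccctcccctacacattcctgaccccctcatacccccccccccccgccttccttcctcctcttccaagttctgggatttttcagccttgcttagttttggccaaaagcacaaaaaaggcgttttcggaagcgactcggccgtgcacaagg
Sgk1 start at chr10:21881934-21882233: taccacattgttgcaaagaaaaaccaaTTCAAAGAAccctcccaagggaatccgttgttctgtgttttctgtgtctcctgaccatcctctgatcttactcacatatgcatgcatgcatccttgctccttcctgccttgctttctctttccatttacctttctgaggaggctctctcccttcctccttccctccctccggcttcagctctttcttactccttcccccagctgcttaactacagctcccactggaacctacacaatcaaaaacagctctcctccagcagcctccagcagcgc
Scnn1g start at chr7:121734229-121734528: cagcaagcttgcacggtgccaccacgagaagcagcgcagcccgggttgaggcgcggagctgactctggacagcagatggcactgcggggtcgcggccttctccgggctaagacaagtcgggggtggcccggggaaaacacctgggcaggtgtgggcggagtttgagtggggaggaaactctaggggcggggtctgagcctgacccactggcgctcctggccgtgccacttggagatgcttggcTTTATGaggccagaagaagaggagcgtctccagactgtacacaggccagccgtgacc
Scnn1b start at chr7:121864788-121865087: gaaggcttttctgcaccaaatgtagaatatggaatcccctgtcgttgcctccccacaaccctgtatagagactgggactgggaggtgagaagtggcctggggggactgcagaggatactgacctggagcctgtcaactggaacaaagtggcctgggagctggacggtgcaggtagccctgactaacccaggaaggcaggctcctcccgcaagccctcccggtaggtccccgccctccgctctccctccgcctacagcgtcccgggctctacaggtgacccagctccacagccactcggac
The first of these starts is 1 of 6 listed for Sgk1 and holds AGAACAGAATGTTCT at position -189 and the CDX letters at position -200, counted from the start. That palindrome occurred in 3 of 32851 promoters, a share of 0.00913%. The STAT motif was found at position -223 of the other Sgk1 start shown (TTCAAAGAA) and in 8.3% of all promoters, and the CDX motif at position -7 of Scnn1g and in 11.9%. The NF-kB letters, in 4.79% of promoters, were in none of the member windows. No match was found for Scnn1b, Cftr, Aqp1, Aqp8 or the other 4 Sgk1 starts. No matches overlap. A match describes letters only, the counts do not show which Sgk1 start was used, and binding was not measured.

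In unstimulated colonoids the levels spanned more than 2 orders of magnitude once divided by annotated exon length. Aqp8 led with 170 ± 7.73 CPM per kb, followed by Scnn1a with 48.8 ± 3.996 and Aqp4 with 48.1 ± 7.94, which did not differ beyond their spread. Sgk1 had 28.1 ± 1.90 and Cftr 12.0 ± 2.34 CPM per kb. Best2 at 5.32 ± 0.859 and Aqp1 at 3.74 ± 0.891 CPM per kb overlapped between libraries. The other ENaC subunit genes came last, Scnn1b at 1.25 ± 0.248 and Scnn1g at 0.749 ± 0.232 CPM per kb. RNA of the alpha subunit therefore stood 38.9 times above that of beta and 65.2 times above that of gamma in unstimulated colonoids. The alpha to beta ratio was 110 with both cytokines, 55.5 with IL-22 and 43.3 with IL-1b. The first 2 of these rest on 13 and 30 beta counts, with beta at 0.333 ± 0.184 and 0.802 ± 0.515 CPM per kb. The alpha to gamma ratio was 237 with both, 378 with IL-22 and 44.3 with IL-1b, where the first 2 rest on 7 and 5 gamma counts.

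**Figure D1:**
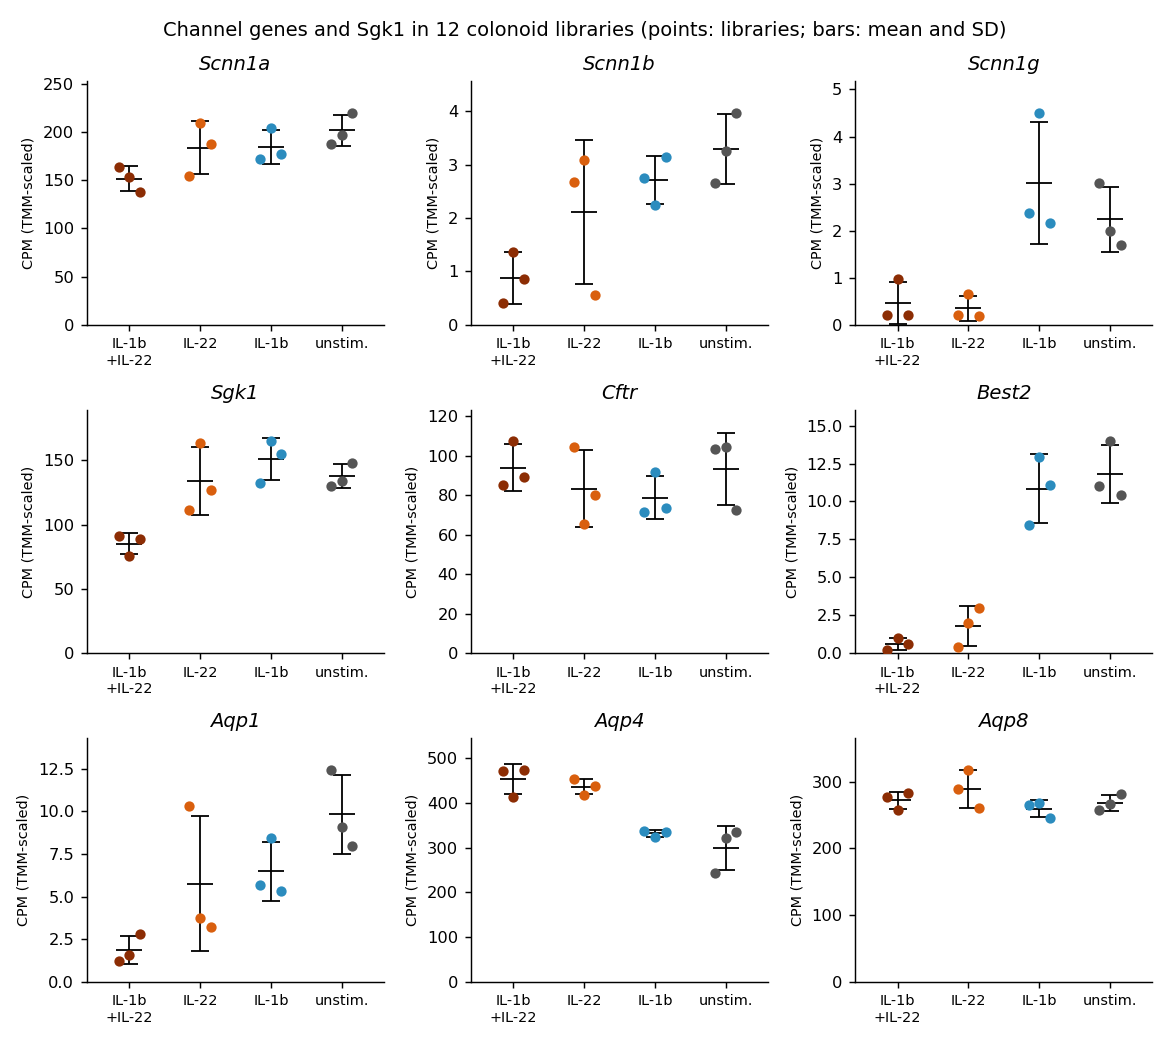
TMM-scaled CPM of each gene (y axes, each from 0) in the 12 libraries, by group on the x axis. Points are libraries and bars are the mean and SD of 3. Best2 and Scnn1g were low in all 6 libraries with IL-22, Aqp4 was high in the same 6, and Sgk1 was lowest in the 3 libraries with both cytokines.

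Scnn1g, the gamma subunit, had 1, 5 and 1 counts with both cytokines, 1, 3 and 1 with IL-22, 13, 24 and 13 with IL-1b and 17, 11 and 9 in unstimulated colonoids. No library with IL-22 reached the lowest one without it. It fell by 2.64 ± 0.63 on the log2 scale with IL-22 (edgeR quasi-likelihood test, adjusted p = 0.00782), and 22.5% of all genes tested passed in that comparison. On summed counts the ratio of IL-22 to unstimulated was 5 against 37, or 0.151 (exact 95% counting interval 0.0463 to 0.385), and 0.0873 (0.0102 to 0.338) without IL-22 replicate 2. With both cytokines Scnn1g fell by 2.19 ± 0.58 (edgeR, adjusted p = 0.0128), on 7 counts against 37 (ratio 0.211, 0.0792 to 0.479). That ratio was 0.0921 (0.0108 to 0.357) without replicate 2 of the both-cytokine group. The call against unstimulated was lost without unstimulated replicate 1 (edgeR adjusted p = 0.0536) or without replicate 1 (0.0551) or 3 (0.0564) of the both-cytokine group, within a range of 0.00327 to 0.0564 over all alternatives. Fitted on just the 6 libraries of either comparison, Scnn1g did not pass the count filter, so no value was had. Intervals cover counting error only. In bulk RNA, fewer cells of a type and less RNA per cell cannot be told apart, here and for all genes that follow.

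Scnn1b, the beta subunit, had 2, 7 and 4 counts with both cytokines, 13, 14 and 3 with IL-22, 15, 12 and 19 with IL-1b and 15, 18 and 21 in unstimulated colonoids. The libraries with both cytokines lay below all those with IL-1b and all unstimulated ones. They overlapped the IL-22 group only through IL-22 replicate 3, which had 0.564 CPM. Scnn1b fell with both cytokines by 1.88 ± 0.51 (edgeR, adjusted p = 0.0139), on 13 counts against 54 (ratio 0.268, 0.134 to 0.498). Without replicate 1 of the both-cytokine group the log2 fold change was -1.53 and the edgeR adjusted p 0.0605, the highest of a range that began at 0.00176. With IL-22 alone the fold change was -0.67 ± 0.43 (adjusted p = 0.296). The summed-count ratio of IL-22 to unstimulated was 0.621 (0.384 to 0.988), and 0.875 (0.530 to 1.41) without IL-22 replicate 3.

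Scnn1a, the alpha subunit, had 164, 153 and 138 CPM with both cytokines, 155, 210 and 188 with IL-22, 172, 204 and 177 with IL-1b and 188, 197 and 220 in unstimulated colonoids. All 3 libraries with both cytokines were below all with IL-1b and all unstimulated ones, while IL-22 replicate 1 fell among them. Scnn1a fell with both cytokines by 0.41 ± 0.10 (edgeR, adjusted p = 0.0098). The fold change was -0.13 ± 0.10 with IL-22 (adjusted p = 0.387) and -0.13 ± 0.10 with IL-1b.

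Sgk1, the kinase, had 91.0, 76.1 and 88.8 CPM with both cytokines, 112, 163 and 127 with IL-22, 133, 165 and 155 with IL-1b and 130, 134 and 148 in unstimulated colonoids. Every library with both cytokines was below every other library. With both it fell by 0.69 ± 0.12 (edgeR, adjusted p = 0.00104), against -0.04 ± 0.12 with IL-22 (adjusted p = 0.851) and 0.13 ± 0.12 with IL-1b. The sign with IL-22 alone depended on the library left out, and its value ranged between -0.20 and 0.07.

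Best2, the goblet cell anion channel gene, had 0.201, 0.978 and 0.642 CPM with both cytokines, 0.412, 1.99 and 3.01 with IL-22, 8.43, 12.9 and 11.1 with IL-1b and 11.02, 13.97 and 10.4 in unstimulated colonoids. The 6 libraries with IL-22 were all far below the 6 without it. It fell with IL-22 by 2.67 ± 0.38 (edgeR, adjusted p = 0.000246), on 27 counts against 194 (ratio 0.156, 0.0999 to 0.233). Without IL-22 replicate 3 the ratio was 0.0993 (0.0487 to 0.182) and the log2 fold change -3.30. With both cytokines it fell by 4.22 ± 0.47 (edgeR, adjusted p = 2.18e-05), on 9 counts against 194 (ratio 0.0516, 0.0233 to 0.10008). Of 8 goblet cell marker genes, 1 fell with both cytokines (Atoh1, by 0.61) and 2 fell with IL-22 (Atoh1 by 0.70 and Spdef by 0.36), and none rose, where 13.3% and 10.6% of all genes tested were lower. The summed level of the 8 markers was 1890 to 2033 CPM with both cytokines, 1893 to 2208 with IL-22, 1790 to 2038 with IL-1b and 2045 to 2079 in unstimulated colonoids. Raw counts of Tff3 and Zg16 kept to 332 to 373 and 595 to 666 in all libraries. Whether marker counts are compressed, as may hold for Aqp8 below, was not tested, so the sum may miss a change. The part of goblet cell number in the Best2 result was not tested. Of 3 markers of deep crypt secretory cells, 1 fell with both and with IL-22 (Kit, with -1.63 and -1.07), while Reg4 stood at -0.05 in each and Agr2 at 0.04 and 0.02. These 3 summed to 179 to 208 CPM with both, 162 to 220 with IL-22, 174 to 193 with IL-1b and 192.6 to 209.5 in unstimulated colonoids. Agr2, in that sum, kept to 510 to 613 raw counts in all libraries.

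Cftr had 85.1, 107 and 89.4 CPM with both cytokines, 104, 65.6 and 79.9 with IL-22, 71.7, 91.6 and 73.3 with IL-1b and 104, 104 and 72.4 in unstimulated colonoids. The 4 groups overlapped. The log2 fold change was 0.01 ± 0.16 with both (edgeR, adjusted p = 0.978), -0.17 ± 0.17 with IL-22 (adjusted p = 0.518) and -0.25 ± 0.17 with IL-1b. Its direction with both cytokines turned to -0.03 when libraries were scaled by total counts. A change smaller than these standard errors, or somewhat larger, could have been missed. Aqp1 with IL-22, at -0.78 ± 0.37, did not pass the test.

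Aqp4, a basolateral water channel of surface colonocytes (chromosome 18, 15389496 to 15410982, minus strand), had 470, 414 and 474 CPM with both cytokines, 453, 418 and 438 with IL-22, 338, 323 and 335 with IL-1b and 243, 322 and 334 in unstimulated colonoids. All 6 libraries with IL-22 lay above all 6 without it. It rose by 0.60 ± 0.09 with both cytokines (edgeR, adjusted p = 0.00036) and by 0.54 ± 0.09 with IL-22 (adjusted p = 0.000956). Of 7 colonocyte markers, 2 rose with both cytokines and the same 2 with IL-22, where 13.7% and 11.9% of all genes were higher, and none fell. They were Krt20 (by 0.24 and 0.26, on 1496 to 1649 raw counts over all libraries) and Ceacam1 (by 0.20 and 0.23). Over all genes, those at 0.1 to 0.4 counts per exon base had medians of 0.08 with both and 0.07 with IL-22. Those at 0.4 to 0.8 had 0.12 and 0.13. The ranges of Krt20 and Ceacam1 are not given here, and the part of that trend in their calls was not tested.

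Aqp1, best known from endothelium, red cells and kidney tubules, had 1.21, 1.56 and 2.78 CPM with both cytokines, 10.3, 3.76 and 3.20 with IL-22, 5.68, 8.44 and 5.31 with IL-1b and 12.4, 9.07 and 7.94 in unstimulated colonoids. The libraries with both cytokines were below all others. It fell with both by 2.41 ± 0.44 (edgeR, adjusted p = 0.00123). With IL-22 alone the fold change was -0.78 ± 0.37 (adjusted p = 0.152), and it was -1.50 (edgeR adjusted p = 0.00685) without IL-22 replicate 1, the library at 10.3 CPM. Over all alternatives that adjusted p was 0.00685 to 0.397. Of 7 endothelial markers, Cdh5, Kdr, Emcn, Tek and Plvap had 0 to 3 counts in each library. The 7 summed to 1.93 to 5.67 CPM with both cytokines, 2.87 to 3.39 with IL-22, 8.82 to 11.7 with IL-1b and 8.32 to 11.02 in unstimulated colonoids. Nearly all of this was Pecam1, with log2 fold changes of -1.48 with both and -2.29 with IL-22 (each called), and Vwf, which fell by 1.07 with both. Their part in the Aqp1 result was not tested.

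Aqp8, an apical water channel of colonocytes, had 277, 258 and 283 CPM with both cytokines, 290, 318 and 260 with IL-22, 265, 268 and 245 with IL-1b and 257, 267 and 281 in unstimulated colonoids. The groups overlapped, and the log2 fold change was 0.02 ± 0.07 with both (edgeR, adjusted p = 0.854), 0.11 ± 0.07 with IL-22 (adjusted p = 0.303) and -0.05 ± 0.07 with IL-1b. Its raw counts, 1318 to 1487 in all 12 libraries, varied less between libraries of a group than counting noise alone would give (variance over mean 0.491), at 0.896 counts per exon base. The 25 genes at 0.8 counts per exon base or more had a median variance over mean of 0.660, against 3.21 for the 4128 genes between 0.1 and 0.4. The other members lay between 0.00276 and 0.315 counts per base, with a variance over mean from 1.36 (Scnn1b) to 17.6 (Aqp4). Whether the lowest of these exceeds counting noise was not tested. Fold changes of Aqp8 may therefore be compressed. With the trend of fold change on count per base removed, Aqp8 turned to -0.12 with both cytokines (edgeR adjusted p = 0.0335), -0.05 with IL-22 and -0.08 for both against IL-1b. Over all alternatives its adjusted p with both was 0.0335 to 0.967.

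**Figure D2:**
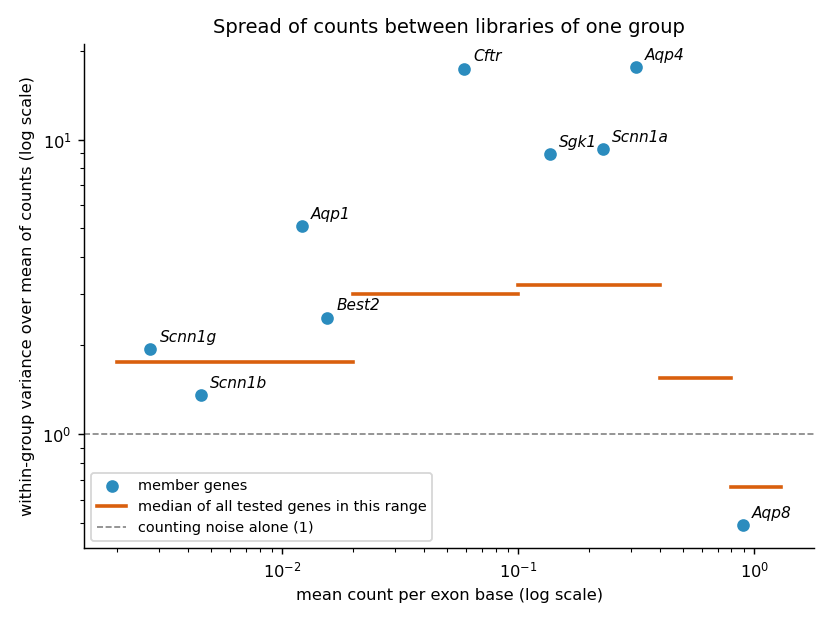
Within-group variance of the raw counts divided by their mean (y, log scale) against mean count per exon base (x, log scale) for the 9 genes (points), with the median of all tested genes in each of 5 ranges (orange). Aqp8 lies below the dashed line of counting noise at 0.491, and Cftr and Aqp4 lie highest at 17.4 and 17.6.

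With IL-1b alone none of the 9 genes passed, in a comparison where 0.0715% of all genes passed (10 genes, with 1338 at an unadjusted p under 0.05 and 32 by DESeq2). None of the 9 was at an unadjusted p under 0.05. The largest fold change was that of Aqp1, -0.61 ± 0.36, followed by 0.41 ± 0.40 for Scnn1g and -0.27 ± 0.40 for Scnn1b. Best2 stood at -0.12 ± 0.29 and Aqp4 at 0.15 ± 0.09. With IL-22 3 of 9 passed against 22.5% of all genes, 1 higher against 11.9% and 2 lower against 10.6%, and the median fold change of the 9 was -0.17. With both cytokines 7 of 9 passed against 27.0%, 1 higher against 13.7% and 6 lower against 13.3%, with a median of -0.69. Scnn1g, Scnn1b and Best2 had counts under 10 in every library with both cytokines, and Aqp1 had 6, 8 and 13. These genes passed the count filter through other libraries. The 2 lower calls with IL-22, Scnn1g (1, 3 and 1 counts) and Best2 (2, 9 and 16 counts), likewise passed through libraries without IL-22. Little can therefore be read from these numbers of calls beside the shares over all genes. The median over all genes was within 0.01 of 0 in each of these 3 comparisons, but with IL-22 it depended on abundance. Below 0.02 counts per exon base, where Scnn1b, Scnn1g, Best2 and Aqp1 lie, it was -0.18 with IL-22 and -0.20 with both. Between 0.1 and 0.4, where Scnn1a, Sgk1 and Aqp4 lie, it was 0.07 and 0.08. With that trend removed, values with IL-22 were -0.46 for Scnn1b, -2.41 for Scnn1g, -2.53 for Best2, -0.62 for Aqp1 and 0.45 for Aqp4. That fit called the same 3 genes. Scaled by total counts, the split of all called genes was 1209 higher and 1979 lower with IL-22, in place of 1661 and 1484, and 1497 and 2255 with both, in place of 1920 and 1863. That scaling moved the median of all genes to -0.06 with IL-22 and to -0.04 with both. The comparisons share their unstimulated libraries.

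**Figure D3:**
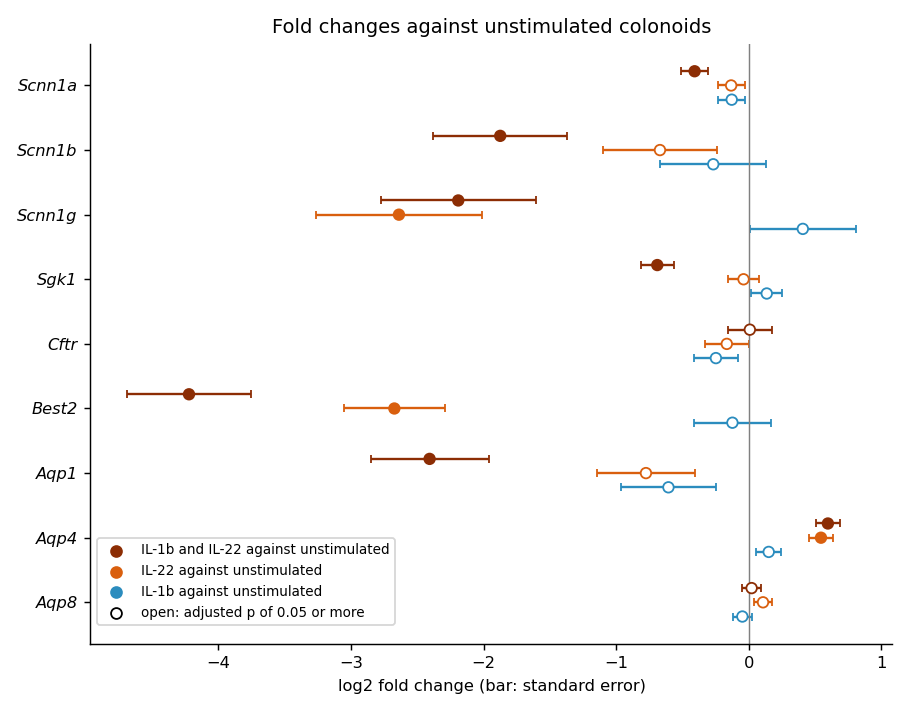
Log2 fold change (x, with standard error) of the 9 genes (y) for both cytokines, IL-22 and IL-1b, each against unstimulated. Filled points passed the test. All 7 filled points of the both-cytokine comparison and the 3 of IL-22 belong to genes named above, and every IL-1b point is open.

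Whether IL-1b acted differently in the presence of IL-22 was tested as an interaction, and none of the 9 genes passed, where 0% of all genes passed (705 genes at an unadjusted p under 0.05, and 4 by DESeq2). Sgk1 ranked 4 of 13987 by p, with an interaction of -0.79 ± 0.17 on the log2 scale and an edgeR adjusted p of 0.924. DESeq2 gave Sgk1 an adjusted p of 0.0494, and over all alternatives it was 0.000133 to 1.00. For Sgk1, IL-1b changed the level by -0.65 ± 0.13 in the presence of IL-22 (both against IL-22, edgeR adjusted p = 0.0836) and by 0.13 ± 0.12 without it. Leaving out IL-22 replicate 1 brought the first of these to -0.77 (adjusted p = 0.0141, with 1.38e-06 to 0.275 over all alternatives). The interaction was -1.42 ± 0.70 for Best2, -1.03 ± 0.61 for Aqp1, -0.94 ± 0.69 for Scnn1b and 0.42 ± 0.24 for Cftr. For Scnn1a it was -0.15 ± 0.15. The interaction was -0.80 for Best2 without IL-22 replicate 3 and -0.30 for Aqp1 without IL-22 replicate 1.

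Both cytokines against IL-22 alone gave 0 of 9 calls with edgeR, where 0.0786% of all genes passed, 0.0643% higher and 0.0143% lower (1440 genes were at an unadjusted p under 0.05, and 87 passed with DESeq2). Of the 9, 5 were at an unadjusted p under 0.05: Sgk1, Aqp1 (-1.63 ± 0.48), Scnn1a (-0.28 ± 0.11), Best2 (-1.55 ± 0.64) and Scnn1b (-1.20 ± 0.56), all lower with both, with adjusted p between 0.0836 and 0.484. Without IL-22 replicate 1 the Aqp1 value was -0.91, on a count ratio of 0.530 (0.307 to 0.904) in place of 0.320, and without IL-22 replicate 3 the Best2 value was -0.92, on 0.520 (0.191 to 1.38) in place of 0.332. The Scnn1g value in this comparison, 0.45 ± 0.86, was 1.17 without IL-22 replicate 2 and -0.65 without replicate 2 of the both-cytokine group. DESeq2 called 1 of them, Sgk1 (adjusted p = 0.000657). Both cytokines against IL-1b alone gave 6 of 9 calls, against 26.3% of all genes, 1 higher against 13.3% and 5 lower against 13.0%. The limit from the count filter, given above for Scnn1g, Scnn1b, Best2 and Aqp1, holds here too. Scaled by total counts, that split over all genes was 1398 higher and 2371 lower, in place of 1860 and 1822. Best2 fell by 4.10 ± 0.47 (edgeR, adjusted p = 3.25e-05). Scnn1g fell by 2.60 ± 0.55, Aqp1 fell by 1.80 ± 0.47, Sgk1 fell by 0.83 ± 0.12 and Scnn1b fell by 1.61 ± 0.52 (edgeR, adjusted p = 0.0348), while Aqp4 rose by 0.45 ± 0.09. The Scnn1g ratio against IL-1b was 0.160 (0.0610 to 0.354), and 0.0698 (0.00822 to 0.265), on 2 counts, without replicate 2 of the both-cytokine group. The Scnn1b call was lost with DESeq2 (0.0547) and without IL-1b replicate 1 (0.0709) or 3 (0.107) or replicate 1 (0.120) or 3 (0.0860) of the both-cytokine group, the lowest over all alternatives being 0.0104. Scnn1a, at -0.28 ± 0.10, missed with an edgeR adjusted p of 0.0627, and passed without replicate 1 of the both-cytokine group (0.0490) and with DESeq2 (0.0490), with 0.00742 to 0.208 over all alternatives.

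**Figure D4:**
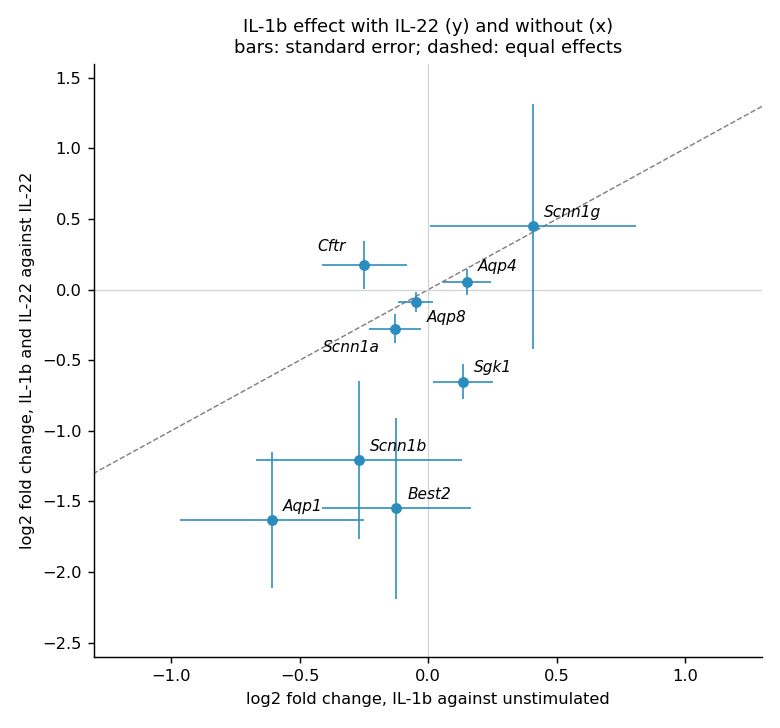
Log2 fold change for IL-1b in the presence of IL-22 (y, both cytokines against IL-22) against that without it (x, IL-1b against unstimulated), with standard errors, for the 9 genes. The 2 axes share no libraries. Sgk1, Best2, Scnn1b and Aqp1 lie farthest below the dashed line of equal effects, and no distance from that line passed the interaction test.

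Around ENaC, 21 genes of its activation and of the aldosterone response were all tested. With both cytokines 4 rose and 4 fell (median fold change of the list 0.00, as over all genes), and with IL-22 3 rose and 4 fell (median 0.04). Over all genes 13.7% rose and 13.3% fell with both, and 11.9% rose and 10.6% fell with IL-22. None passed with IL-1b. Hsd11b2, the enzyme that inactivates corticosterone and so leaves the mineralocorticoid receptor to aldosterone, had 41.4 ± 8.23 CPM with both, 59.6 ± 14.5 with IL-22, 98.0 ± 10.0 with IL-1b and 104 ± 19.2 in unstimulated colonoids. It fell by 1.32 ± 0.18 with both (edgeR, adjusted p = 0.000104) and by 0.79 ± 0.17 with IL-22. Per1, a clock gene induced by corticosteroids, fell by 1.04 ± 0.13 with both and by 0.61 ± 0.13 with IL-22. Wnk4, a kinase that regulates ion transporters, fell by 0.52 ± 0.12 and 0.54 ± 0.12 in the same comparisons. The kinase gene Sgk2, a relative of Sgk1, rose instead, by 0.63 ± 0.06 with both and by 0.64 ± 0.06 with IL-22. The calls of this list not chosen by size were named after their values were seen. Among them the protease genes St14 and Tmprss4, whose products can cleave ENaC, rose with both (by 0.35 ± 0.06 and 0.31 ± 0.06) and with IL-22 (by 0.37 ± 0.06 and 0.24 ± 0.06). Prss8, which encodes the ENaC-cleaving protease prostasin, rose by 0.25 ± 0.07 with both. Tsc22d3, a corticosteroid-induced gene, fell by 0.42 ± 0.12 with both and did not pass with IL-22 (-0.11 ± 0.12). Fkbp5, a cochaperone of steroid receptors, fell by 0.34 ± 0.10 with IL-22 and did not pass with both (-0.24 ± 0.10). Against IL-1b alone, both cytokines gave 7 higher and 3 lower of the 21, where 13.3% of all genes were higher and 13.0% lower.

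Of 11 sodium pump genes 6 were tested, and none passed with either cytokine alone. Fxyd4, a pump regulator induced by corticosteroids, had 17.2 ± 3.31 CPM with both, 24.96 ± 6.47 with IL-22, 34.4 ± 6.94 with IL-1b and 28.7 ± 2.27 in unstimulated colonoids, and fell by 0.74 ± 0.20 with both (edgeR, adjusted p = 0.0153).

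Of 17 partners of chloride secretion 16 were tested, and 3 rose and 5 fell with both cytokines, 1 rose and 3 fell with IL-22 and none passed with IL-1b. Over all genes 27.0% passed with both and 22.5% with IL-22. Kcnk5, a potassium channel gene, had 74.4 ± 5.78 CPM with both, 93.3 ± 10.9 with IL-22, 138 ± 6.50 with IL-1b and 140 ± 13.6 in unstimulated colonoids, and fell by 0.91 ± 0.09 with both (edgeR, adjusted p = 1.1e-05) and by 0.59 ± 0.09 with IL-22. The scaffold gene Shank2 fell by 1.10 ± 0.30 with both and by 0.85 ± 0.29 with IL-22, and the scaffold gene Pdzk1 by 0.57 ± 0.19 with both. Prkg2, the cGMP-dependent kinase that opens CFTR, rose by 0.91 ± 0.26 with both (adjusted p = 0.0169), with 62.6 to 117 CPM against 27.0 to 62.4, so that the groups nearly touched. The other calls were named after their values were seen. With both cytokines the calcium-activated potassium channel gene Kcnn4 fell by 0.56 ± 0.15 and the cyclase gene Adcy6 by 0.28 ± 0.07, and Kcne3, a potassium channel subunit gene, rose by 0.48 ± 0.10. Gucy2c, the receptor of guanylin, rose by 0.20 ± 0.06. With IL-22 Adcy6 fell by 0.27 ± 0.07 and Gucy2c rose by 0.18 ± 0.06.

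Of 35 other chloride channel genes 34 were in the table and 24 were tested. With both cytokines 3 rose and 5 fell, with IL-22 2 rose and 3 fell, and with IL-1b none passed. These counts lie near the shares over all genes, 27.0% with both and 22.5% with IL-22. Ano1, the calcium-activated chloride channel gene, had 79.2 ± 7.04 CPM with both, 70.9 ± 9.08 with IL-22, 176 ± 16.8 with IL-1b and 170 ± 6.69 in unstimulated colonoids. It fell by 1.10 ± 0.09 with both (edgeR, adjusted p = 1.92e-06) and by 1.26 ± 0.09 with IL-22 (1.09e-06). Its relative Ano7 fell by 1.08 ± 0.15 with both and by 0.81 ± 0.14 with IL-22, and Clic6 fell by 0.89 ± 0.16 with both. Ttyh1 rose by 1.04 ± 0.34 with both (adjusted p = 0.0377). Named after their values were seen, Lrrc8d, a subunit of the volume-regulated anion channel, rose by 0.48 ± 0.10 with both and by 0.47 ± 0.10 with IL-22, and Clic1 by 0.26 ± 0.07 in each. Lrrc8e and Ano10 fell by 0.35 ± 0.12 and 0.21 ± 0.07 with both, and Ano8 by 0.42 ± 0.12 with IL-22. Of 9 other aquaporin genes 1 had enough counts. This gene, Aqp11, fell by 0.75 ± 0.16 with both (edgeR, adjusted p = 0.00287) and by 1.21 ± 0.16 with IL-22 (0.000148). The other 8 had at most 9 counts in any library. No gene of the 5 lists passed for both against IL-22 or for the interaction.

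**Figure D5:**
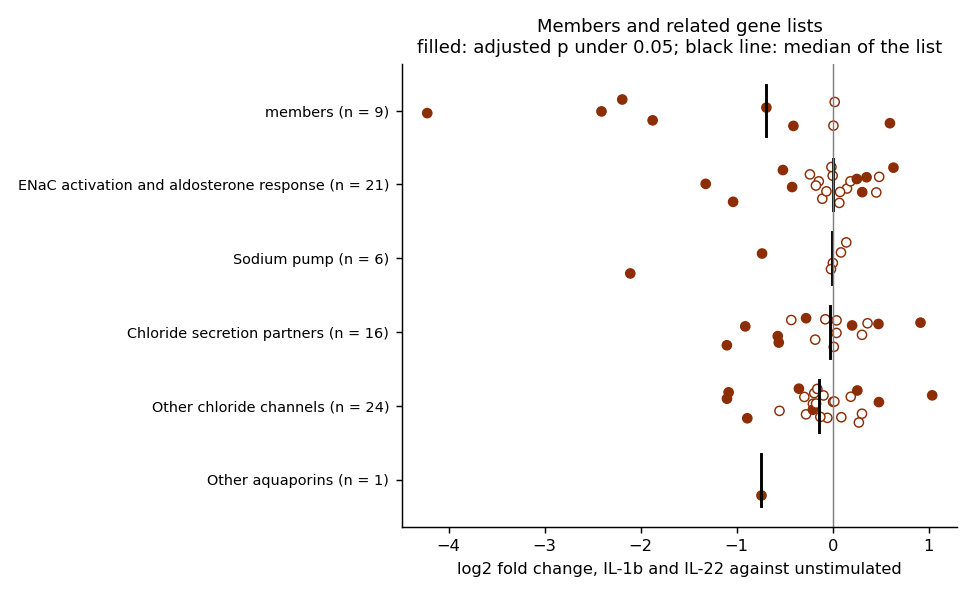
Log2 fold change of both cytokines against unstimulated (x) for the 9 genes and the tested genes of 5 related lists (y). Filled points passed the test and black lines are medians. The 9 genes have a median of -0.69, and the list of ENaC activation and aldosterone response a median of 0.00.

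Across the 12 libraries Scnn1g and Best2 had similar profiles (Pearson r of log2 CPM 0.88), as did Scnn1a and Sgk1 (0.83), while Scnn1g and Aqp4 ran opposite (-0.89). Scnn1b and Scnn1g gave 0.66. The genes most alike to Best2 were Tert (0.99), Tef and Natd1, and those most alike to Scnn1g were Tsc1 (0.96), Rcor3 and Atoh1. Sgk1 was closest to Arhgef37 (0.95), Itpr1 and Fgf1, and Scnn1a to Plekhg1 (0.97), Mcmbp and Phyh. Scnn1b was closest to Hp1bp3 (0.91), Aqp1 to Tbc1d31 (0.94), Aqp4 to Il18 (0.98), Aqp8 to Sdc1 (0.97) and Cftr to Limd1 (0.88). These values describe 12 libraries that share treatments, so the group differences enter them.

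Library totals were 4703902 to 5804033 counts, and the 7 general epithelial markers summed to 1791 to 2232 CPM. Their raw counts summed to 10105 to 10799 in all libraries, and whether they are compressed was not tested. Markers of other cells and states also moved with the treatments. Over all genes 13.7% rose and 13.3% fell with both, and 11.9% rose and 10.6% fell with IL-22. Of 5 stem cell markers 4 were tested, and 2 fell with both (Smoc2 with -1.84 and Axin2 with -0.85 on the log2 scale). With IL-22 1 stem cell marker fell (Ascl2, with -1.35, on 2 to 13 counts per library). Smoc2 (-0.65), Lgr5 (0.28) and Axin2 (0.27) did not pass with IL-22, so the tested markers did not share a direction. The 5 stem cell markers summed to 14.1 to 20.5 CPM with both, 24.3 to 43.9 with IL-22, 20.3 to 27.96 with IL-1b and 26.5 to 38.2 in unstimulated colonoids, so the libraries with both cytokines lay below all unstimulated ones. The 9 leukocyte markers, of which 3 were at 0 in all 12 libraries, summed to 71, 91 and 97 counts with both, 83, 106 and 65 with IL-22, 286, 98 and 100 with IL-1b and 40, 34 and 34 in unstimulated colonoids. Every library with a cytokine was above the unstimulated ones. Of 4 tested, Cd68 rose with both (by 1.59) and with IL-22 (by 1.76), and Ptprc and Laptm5 had 104 and 130 counts in IL-1b replicate 1. The 9 fibroblast and smooth muscle markers summed to at most 7 counts in a library with both, 9 with IL-22, 23 with IL-1b and 10 in unstimulated colonoids. The 7 glial and neuronal markers, of which Sox10 was at 0 throughout, summed to 5.67 to 6.85 CPM with both, 5.15 to 10.2 with IL-22, 7.46 to 12.8 with IL-1b and 8.53 to 13.6 in unstimulated colonoids, and the 1 tested, Uchl1, fell by 1.22 with both. Of 5 enteroendocrine markers Chga fell with both (-0.31), and of 2 tested tuft cell markers Avil rose with both (1.47) and with IL-22 (1.36). Avil had 6 to 21 counts per library. The other tested tuft cell marker, Dclk1, stood at 0.21 with both and -0.66 with IL-22 and did not pass. The part of these shifts in the members' values was not tested.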

How the data were processed

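The authors deposited whole-number counts per gene symbol for 12 libraries, made with the Illumina TruSeq Stranded kit per the labels' protocols and with mm10 per the submitters' processing notes. How reads were aligned and counted, on which strand and with which annotation, is not given in the sources used here. Counts were filtered with filterByExpr (13987 of 35869 symbols kept), scaled by TMM (factors 0.957 to 1.04) and fitted over all libraries with edgeR 4.0.16 in R 4.3.3, 1 mean per group. For 6 contrasts genes were tested by the quasi-likelihood test, with Benjamini-Hochberg adjustment over all genes. Standard errors are approximate, the size of each log2 fold change divided by the root of its F statistic. The test was tried on simulated data. Exon lengths and positions came from GENCODE M21 (26762 symbols matched directly and 514 by a synonym). Alternatives were DESeq2 1.42.0, its size factors, total counts, other filters, a replicate block, a count-per-base trend correction, fits of just the libraries compared, and fits without each library in turn. From each related list the rule named up to 4 called genes by size of change with a mean of 1 CPM or more, and for each member the 3 genes with the highest correlation. Members and lists were chosen with earlier results of these data known. A floor of 3 counts is 0.498 to 0.663 CPM. Results of a few listed genes are not reported here.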

Additional observations from a re-analysis of the deposited data

How the results depend on the processing

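Of 974 recomputed values, 904 stayed the same: fold changes of the 9 genes in direction and side of the threshold, counts of called genes within 1.5 times. For Aqp8, removing the count-per-base trend gave -0.049 with IL-22, -0.117 with both and -0.083 for both against IL-1b, and total-count scaling gave -0.034 for Cftr and -0.019 for Aqp8 with both. Genes called with IL-1b numbered 32 by DESeq2 and 212 with no filter beyond 1 count. For both against IL-22, DESeq2 called 87 genes, 1 of the 9 (Sgk1), no filter called 336, 2 of the 9 (Sgk1 and Aqp1), and using only the libraries compared called 6. That last fit gave no value for Scnn1g in any comparison of an IL-22 group with unstimulated, nor for Scnn1g, Scnn1b and Best2 for both against IL-22, since they missed the count filter. For the interaction, DESeq2 called 4 genes and no filter 50, in each case with 1 of the 9 (Sgk1). With the replicate block, both against IL-22 gave 7 genes, and Scnn1b for both against IL-1b missed (edgeR adjusted p = 0.0508). The block changed no other call of the 9. Same-numbered libraries were not treated as pairs, since their deviations correlated between -0.188 and 0.179 and 2 of 12 libraries correlated best with their own number. Leaving out 1 library at a time gave 1992 to 3352 genes with IL-22, 9 to 28 with IL-1b, 3 to 72 for both against IL-22 (0 to 1 of the 9) and 0 to 1 for the interaction. It also gave fold changes of -0.204 to 0.0728 for Sgk1 with IL-22, of -0.259 to 0.032 for Best2 with IL-1b, and with both of -0.147 to 0.093 for Cftr and -0.00912 to 0.0661 for Aqp8. Scnn1g ranged between -0.65 and 1.17 for both against IL-22. In the interaction the ranges were -1.07 to 0.77 for Scnn1g, -0.186 to 0.0258 for Aqp4 and -0.115 to 0.035 for Aqp8. The causes were not tested. Depth limits Scnn1g, Scnn1b and Best2, whose groups held as few as 5, 13 and 9 counts.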
